A study of Mus musculus with 8 samples.

Results

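Prostaglandins and leukotrienes are lipid mediators made from arachidonic acid, and 10 genes of their synthesis and reception were followed across 4 pools of mouse myeloid cells. The genes were listed by name, and each was read from every probe set annotated to that gene alone. Of the 10, 9 had such a probe set, 15 probe sets in all, and Ptgs1 was not analysed here. The series held 18194 genes with a probe set of their own, of which 8174 reached log2 5 on at least 2 of the 8 arrays and were tested. Of the members, 6 were tested (Ptgs2, Ptger2, Ptger4, Alox5, Alox5ap and Lta4h), while Ptges, Ltc4s and Hpgds lay under log2 5 on every array and are given by their values.

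The pathway starts when phospholipases free arachidonic acid from membranes. Cyclooxygenases, encoded by Ptgs1 and Ptgs2, turn it into prostaglandin H2, from which Ptges makes prostaglandin E2 and Hpgds makes prostaglandin D2, and cells sense prostaglandin E2 through receptors that include EP2 (Ptger2) and EP4 (Ptger4). Along the other route 5-lipoxygenase (Alox5), helped by its activating protein (Alox5ap), makes leukotriene A4, which Lta4h turns into the neutrophil attractant leukotriene B4 and Ltc4s into leukotriene C4. Neutrophils and macrophages are known sources of these mediators, mast cells and eosinophils are known for leukotriene C4, and prostaglandin E2 is known as a product of myeloid cells that dampen T cells in tumors.

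Cells carrying CD11b and Gr-1, proteins on the surface of granulocytes and monocytes, were sorted from C57BL/6J mice, and their RNA was read on 8 single-colour Affymetrix arrays. The tumor groups were HDC-EGFP/HDC-KO and HDC-EGFP mice aged 7 months, and HDC-EGFP mice are called wild type (WT). Both had colon tumors after 1 dose of the carcinogen azoxymethane and 10 days of dextran sodium sulfate, an agent that damages colon epithelium, with collection 22 to 24 weeks later. The bone marrow groups were HDC-EGFP/HDC-KO and HDC-EGFP mice aged 3 to 4 months, with no carcinogen treatment named, whose cells are described as HDC-expressing. EGFP reports Hdc, which encodes histidine decarboxylase, the histamine-making enzyme that HDC-KO mice lack, and all 4 groups carry this transgene per the sample labels, although other parts of the labels name the tumor mice only as WT or HDC-KO. Tumor cells from 10 to 12 tumors of 5 mice per group were pooled. Bone marrow came from 3 mice per group. The labels do not state whether it was pooled, and the bone marrow groups are called pools here. Each group is 2 technical arrays. A p-value here therefore sets 1 pool against another relative to how far technical arrays of a pool lie apart, and differences among mice were not measured. Tumor and bone marrow pools also differ in age, carcinogen treatment and the HDC-expressing gate, which cannot be told apart from tissue.

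Hdc, the targeted gene, was high in a tumor pool labelled as lacking it. Hdc stood at 13.02 and 13.03 (log2 values) in the HDC-KO-labelled tumor pool, against 13.25 and 13.23 in the WT tumor pool. In bone marrow Hdc stood at 9.79 and 9.87 in the HDC-KO pool, against 13.14 and 13.21 in the WT pool. Each direction drawn from the HDC-KO-labelled tumor pool therefore rests on its label. All 8 measured neutrophil markers were at or above log2 5 in every pool, and none of the 9 fibroblast and endothelial markers was in any pool. Epithelial markers moved with tissue: of 10 measured, 10 were at or above log2 5 in each tumor pool and 1 in each bone marrow pool.

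The promoter windows of the 3 members whose level differed at least 2-fold between some pools are shown here, from 250 bases before to 50 after the annotated start site, in GRCm38.p6 and credited to RefSeq. A window was found for 9 of the 10 members. Both strands were searched for ACGTCA (cyclic AMP response element), CACGTG (E-box), TTGCGCAA (C/EBP element), TGACTCA (AP-1 element) and GGGCGG (GC box), and matches are in capitals. The Ptgs2 window lies at chr1:150099781-150100080 on the plus strand, that of Alox5 at chr6:116461129-116461428 on the minus strand and that of Lta4h at chr10:93453146-93453445 on the plus strand.
Ptgs2: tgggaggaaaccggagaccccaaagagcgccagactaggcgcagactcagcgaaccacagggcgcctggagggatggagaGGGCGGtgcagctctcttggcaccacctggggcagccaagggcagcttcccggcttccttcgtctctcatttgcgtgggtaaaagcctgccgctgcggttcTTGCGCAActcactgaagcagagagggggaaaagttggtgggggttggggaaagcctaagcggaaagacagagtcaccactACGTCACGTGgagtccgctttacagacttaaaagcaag
Alox5: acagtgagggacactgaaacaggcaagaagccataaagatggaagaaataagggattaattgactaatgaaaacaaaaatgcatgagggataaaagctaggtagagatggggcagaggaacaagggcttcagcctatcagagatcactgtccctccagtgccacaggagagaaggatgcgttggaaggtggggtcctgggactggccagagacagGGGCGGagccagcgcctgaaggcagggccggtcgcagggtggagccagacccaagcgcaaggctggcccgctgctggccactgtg
Lta4h: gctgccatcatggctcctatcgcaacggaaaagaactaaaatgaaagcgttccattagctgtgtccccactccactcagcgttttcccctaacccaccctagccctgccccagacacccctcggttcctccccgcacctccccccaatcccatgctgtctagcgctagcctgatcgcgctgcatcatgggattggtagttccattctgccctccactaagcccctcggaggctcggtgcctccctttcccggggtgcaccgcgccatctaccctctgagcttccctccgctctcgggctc

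The Ptgs2 window held the C/EBP element at bases -69 to -62 from the start site. It held the cyclic AMP response element at 13 to 18, which overlaps the E-box at 17 to 22, and a GC box at -170 to -165. The Alox5 window held a GC box at -35 to -30, and the Lta4h window matched none of the 5 motifs. Among 32851 windows of the same length, 0.183% held the C/EBP element, 7.51% the cyclic AMP response element, 7.15% the E-box, 5.2% the AP-1 element and 35.7% the GC box. Of the 9 members with a window, Ptgs2 alone matched each of the first 3 motifs, and none matched the AP-1 element. A match is a run of letters and was not tested as a binding site.

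**Figure D1:**
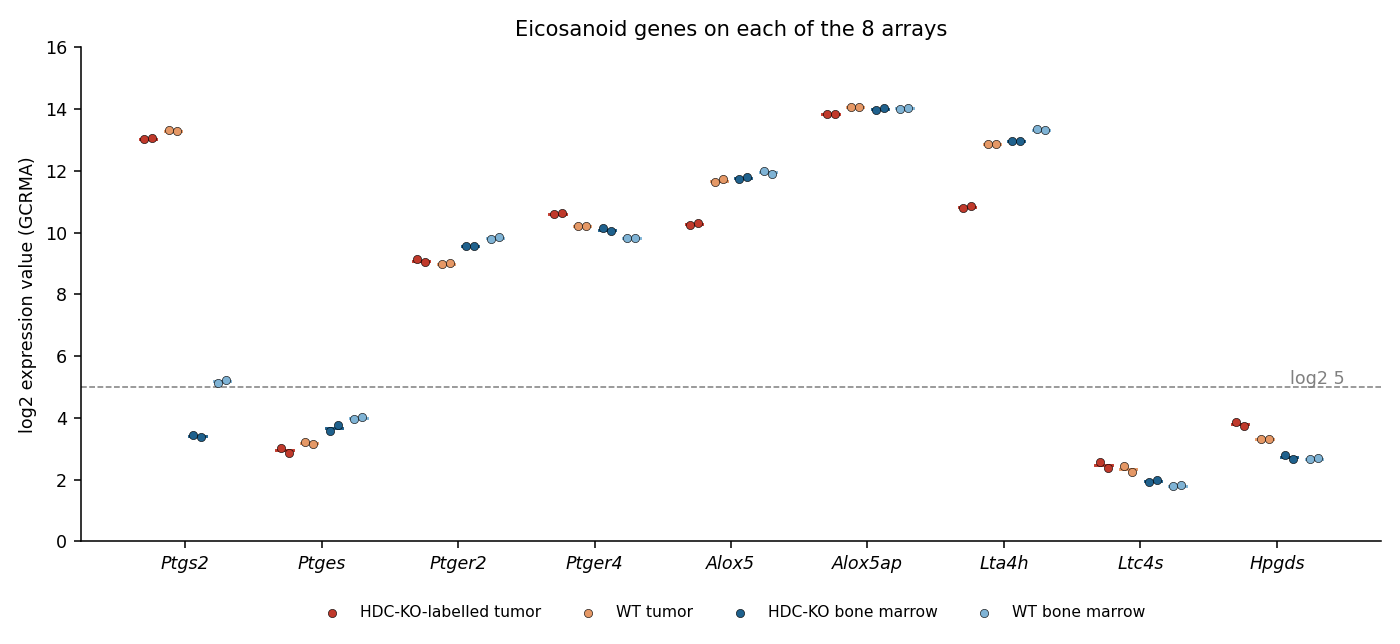
Log2 expression value (vertical axis) of the 9 measured members on each array, with 2 points per pool for the technical arrays, a short bar for their mean and a dashed line at log2 5. Ptgs2 lay at 13.02 or higher on the tumor arrays and at 5.24 or lower on the bone marrow arrays, Lta4h and Alox5 were lowest in the HDC-KO-labelled tumor pool, and Ptges, Ltc4s and Hpgds lay under log2 5 on all arrays.

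Ptgs2, the inducible cyclooxygenase, was far more than 2-fold higher in the tumor pools than in the bone marrow pools. In the HDC-KO-labelled tumor pool it stood at 13.02 and 13.06 (log2 values), against 3.45 and 3.38 in HDC-KO bone marrow. In the WT tumor pool it stood at 13.31 and 13.29, against 5.14 and 5.24 in WT bone marrow. The tumor arrays were all high and the bone marrow arrays all low, with a gap of 7.77 on the log2 scale between the lowest tumor array and the highest bone marrow array. The rise was 276-fold in WT (log2 difference 8.11 ± 0.06, SE, n = 2 technical arrays per pool; limma with Benjamini-Hochberg adjustment over 8174 genes, adjusted p = 2.1e-08). In HDC-KO it was at least 263-fold with the bone marrow mean raised to log2 5, taken here as background, and the measured log2 difference was 9.62 ± 0.06 (limma, adjusted p = 5e-09). In bulk RNA, a change in the number of cells of a type and a change in RNA per cell cannot be told apart. Epithelial markers were also higher in the tumor pools, as given above, and their part in this rise was not tested.

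The other Ptgs2 probe set was also high on all tumor arrays and under log2 5 on all bone marrow arrays. It stood at 10.02 and 10.06 in the HDC-KO-labelled tumor pool and at 1.84 and 2.35 in HDC-KO bone marrow. It stood at 10.53 and 10.63 in the WT tumor pool and at 2.18 and 1.98 in WT bone marrow. With bone marrow means raised to log2 5 it was at least 32.8-fold higher in HDC-KO tumor and at least 47.8-fold higher in WT tumor than in bone marrow, and both differences were called in the fit of every probe set.

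Genotype differences of Ptgs2 were small in tumor and lay around background in bone marrow. In tumor, the HDC-KO-labelled pool averaged 13.04 ± 0.03 and the WT pool 13.3 ± 0.02 (means of log2 values ± SD over 2 technical arrays), a difference of -0.26 ± 0.06 (SE; limma, adjusted p = 0.0072) that was under the 2-fold threshold. In bone marrow, the HDC-KO pool averaged 3.41 ± 0.05 and the WT pool 5.19 ± 0.07, which was called at -1.78 ± 0.06 (SE; limma, adjusted p = 1.6e-05). With the HDC-KO mean raised to log2 5 the fall was at least 1.14-fold, and the log2 difference of -0.19 was no longer called. The other probe set, under log2 5 in both bone marrow pools, gave a difference of 0.01 and was not called.

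Ptges, the inducible prostaglandin E synthase that takes up the product of the cyclooxygenases, stayed under log2 5 on all 8 arrays at each of its 3 probe sets. The brightest of them lay at 3.03 and 2.87 in the HDC-KO-labelled tumor pool, 3.21 and 3.15 in the WT tumor pool, 3.58 and 3.77 in HDC-KO bone marrow, and 3.95 and 4.04 in WT bone marrow. The order of the pools, with tumor below bone marrow and HDC-KO below WT, held for the means of all 3 probe sets. No fold is given, since these levels cannot be told from background. Without the filter on dim genes, none of its 5 limma comparisons was called.

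Hpgds, the hematopoietic prostaglandin D synthase, was also under log2 5 throughout. It lay at 3.85 and 3.72 in the HDC-KO-labelled tumor pool and 3.31 and 3.3 in the WT tumor pool, and at 2.79 and 2.65 in HDC-KO bone marrow and 2.65 and 2.71 in WT bone marrow. The tumor arrays all lay above the bone marrow arrays. Without the filter, its difference between tumor and bone marrow in HDC-KO was called at 1.07 ± 0.08 (SE; limma, adjusted p = 3.1e-05), with both pools below background.

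The prostaglandin E2 receptors were measured well above background in all pools and differed by less than 2-fold in each comparison. Ptger4, which encodes EP4, lay at 10.59 and 10.62 in the HDC-KO-labelled tumor pool and 10.22 and 10.22 in the WT tumor pool. In bone marrow Ptger4 lay at 10.15 and 10.05 in HDC-KO and 9.81 and 9.84 in WT. Its pools did not overlap in this order, but WT tumor and HDC-KO bone marrow were only 0.07 apart between nearest arrays. The largest of its 4 pairwise differences was 0.51 ± 0.05 for tumor over bone marrow in HDC-KO (SE; limma, adjusted p = 0.00016). A dimmer Ptger4 probe set lay at 4.95 to 6.2 and gave differences of 0.56, -0.02, 0.83 and 0.25 for HDC-KO minus WT in bone marrow and in tumor and for tumor minus bone marrow in WT and in HDC-KO, none of them called.

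Ptger2, which encodes EP2, ran the other way between tissues. It lay at 9.14 and 9.05 in the HDC-KO-labelled tumor pool against 9.58 and 9.56 in HDC-KO bone marrow, and at 8.99 and 9 in the WT tumor pool against 9.79 and 9.85 in WT bone marrow. Both tumor pools were low and both bone marrow pools high, with 0.42 between the nearest arrays. The difference of tumor minus bone marrow was -0.82 ± 0.05 in WT (limma, adjusted p = 5.3e-05) and -0.48 ± 0.05 in HDC-KO (limma, adjusted p = 0.00023), both under the 2-fold threshold. Its 2 tumor pools were only 0.05 apart between nearest arrays, and their difference of 0.1 ± 0.05 missed the test (limma, adjusted p = 0.15).

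Lta4h and Alox5, of the leukotriene B4 route, were lower in the HDC-KO-labelled tumor pool than in each other pool. Lta4h, the hydrolase that makes leukotriene B4, lay at 10.79 and 10.86 there, against 12.86 and 12.88 in the WT tumor pool. In bone marrow it lay at 12.98 and 12.97 in HDC-KO and 13.34 and 13.33 in WT. The 2 arrays of the HDC-KO-labelled tumor pool stood 2 below the next array on the log2 scale, while WT tumor and HDC-KO bone marrow were 0.09 apart. Lta4h fell 4.13-fold against WT tumor (-2.05 ± 0.05, SE, n = 2 technical arrays per pool; limma, adjusted p = 8.7e-07) and 4.45-fold against HDC-KO bone marrow (-2.15 ± 0.05; limma, adjusted p = 2e-07). These comparisons share the HDC-KO-labelled tumor pool.

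Its other detected probe set showed the same pools. That probe set lay at 7.04 and 6.6 in the HDC-KO-labelled tumor pool, 9.56 and 9.51 in the WT tumor pool, 9.68 and 9.87 in HDC-KO bone marrow, and 9.99 and 9.87 in WT bone marrow. Its differences of -2.71 in tumor by genotype and -2.95 between tissues in HDC-KO were both called. The third Lta4h probe set lay between 1.88 and 2.11 on all arrays, under background. Smaller differences of the brightest probe set, -0.36 ± 0.05 between HDC-KO and WT bone marrow (limma, adjusted p = 0.0044) and -0.47 ± 0.05 between WT tumor and WT bone marrow (limma, adjusted p = 0.00041), were under 2-fold.

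Alox5, which encodes 5-lipoxygenase, had the same order of pools. It lay at 10.24 and 10.3 in the HDC-KO-labelled tumor pool, against 11.63 and 11.74 in the WT tumor pool. In bone marrow it lay at 11.74 and 11.81 in HDC-KO, against 12 and 11.91 in WT. The nearest arrays of WT tumor and HDC-KO bone marrow met, so that order rests on the other pools. Alox5 fell 2.67-fold in the HDC-KO-labelled tumor pool against WT tumor (-1.42 ± 0.07; limma, adjusted p = 7.2e-06) and 2.84-fold against HDC-KO bone marrow (-1.51 ± 0.07; limma, adjusted p = 2.4e-06). The differences of -0.18 ± 0.07 between the bone marrow pools (limma, adjusted p = 0.11) and -0.27 ± 0.07 between tissues in WT (limma, adjusted p = 0.015) were not called.

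Alox5ap, the membrane protein that hands arachidonic acid to 5-lipoxygenase, was nearly level. It lay at 13.85 and 13.85 in the HDC-KO-labelled tumor pool, 14.06 and 14.07 in the WT tumor pool, 13.98 and 14.02 in HDC-KO bone marrow, and 14.01 and 14.03 in WT bone marrow. The bone marrow pools overlapped, and the largest difference was -0.21 ± 0.05 between the tumor pools (limma, adjusted p = 0.0065). The highest value on these arrays was 15.13 to 15.34, so this probe set was read near the top of the scale.

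Ltc4s, the leukotriene C4 synthase, was under log2 5 on all arrays. It lay at 2.57 and 2.36 in the HDC-KO-labelled tumor pool and 2.45 and 2.24 in the WT tumor pool, and at 1.92 and 1.98 in HDC-KO bone marrow and 1.78 and 1.83 in WT bone marrow. None of its 5 limma comparisons was called without the filter. Of 10 mast cell and basophil markers other than Hdc, 0 were at or above log2 5 in either tumor pool, 2 were in HDC-KO bone marrow and 5 in WT bone marrow. The summed level of these markers (log2 of the sum of linear values) was 6.6 to 6.92 in the HDC-KO-labelled tumor pool and 6.45 to 6.48 in the WT tumor pool, and 8.77 to 8.85 in HDC-KO bone marrow and 10.48 to 10.64 in WT bone marrow. Of 6 measured eosinophil markers 2 averaged log2 5 or more in each pool. Siglecf averaged 7.81 in the HDC-KO-labelled tumor pool, 6.98 in WT tumor, 7.25 in HDC-KO bone marrow and 8.27 in WT bone marrow. Prg2 averaged 2.54 in the HDC-KO-labelled tumor pool, 6.7 in WT tumor, 7.93 in HDC-KO bone marrow and 6.96 in WT bone marrow, and Ccr3 averaged 7.5 in the HDC-KO-labelled tumor pool and under log2 5 elsewhere. Epx, Il5ra and Prg3 were under log2 5 in all 4 pools.

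**Figure D2:**
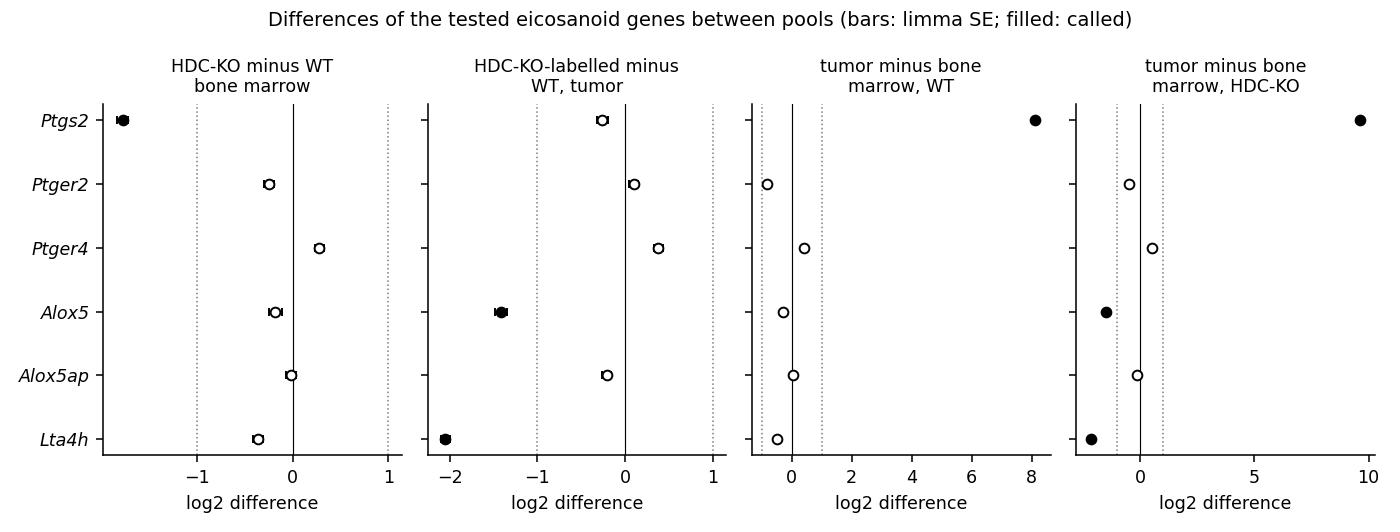
Log2 difference (horizontal axis, scaled separately in each panel) of the 6 tested members in the 4 pairwise comparisons, with bars for limma's standard error, dotted lines at 2-fold and filled points for called genes. The panels show Ptgs2 8.11 and 9.62 higher in tumor than in bone marrow, and Lta4h and Alox5 lower by more than 2-fold where the HDC-KO-labelled tumor pool is compared.

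Members are set here against all tested genes. A gene was called at a limma adjusted p under 0.05 with at least a 2-fold difference in either direction. Between HDC-KO and WT bone marrow 1 of the 6 members was called, where 3.82% of all genes were. Between the HDC-KO-labelled and the WT tumor pool 2 of 6 were called, where 26.0% of all genes were. Tumor against bone marrow gave 1 of 6 in WT, where 16.4% of all genes were called, and 3 of 6 in HDC-KO, where 36.5% were. With only 6 members, nothing is read from these shares. The members' median differences were -0.21, -0.24, -0.11 and -0.31 in these comparisons, beside medians of 0, 0.03, -0.03 and -0.02 over all genes.

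Whether the genotype difference in tumor departed from that in bone marrow was tested directly, tumor minus bone marrow, and 3 of 6 members were called, where 28.5% of all genes were. Lta4h differed by -2.05 in tumor and -0.36 in bone marrow, a difference of effects of -1.68 ± 0.07 (SE; limma, adjusted p = 9.2e-06). Alox5 differed by -1.42 in tumor and -0.18 in bone marrow, a difference of -1.24 ± 0.09 (limma, adjusted p = 7.7e-05). Both genes therefore had the larger fall in tumor. Ptgs2, at -0.26 in tumor and -1.78 in bone marrow, had a difference of 1.52 ± 0.08 (limma, adjusted p = 2.4e-05). That value rests on HDC-KO bone marrow lying under log2 5, and it was -0.07 with values raised to log2 5 and -0.56 at the other probe set.

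Markers of other cells moved with the falls of Lta4h and Alox5, and their part in the result was not tested. All 7 neutrophil precursor markers fell in the HDC-KO-labelled tumor pool against WT tumor, and their summed level was 9.7 to 9.75 against 13.05 to 13.07. Monocyte and macrophage markers rose, 6 of 8, with a summed level of 14.95 to 15.01 against 13.89 to 13.93. Of 10 epithelial markers 9 rose, with a summed level of 14.56 to 14.66 against 12.2 to 12.24. None of the 8 measured neutrophil markers was called there by limma, and their summed level was 17.18 to 17.2 against 17.38 to 17.42. They moved in both directions, with Csf3r at 13.08 against 12.22 and Mmp9 at 12.71 against 13.64.

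**Figure D3:**
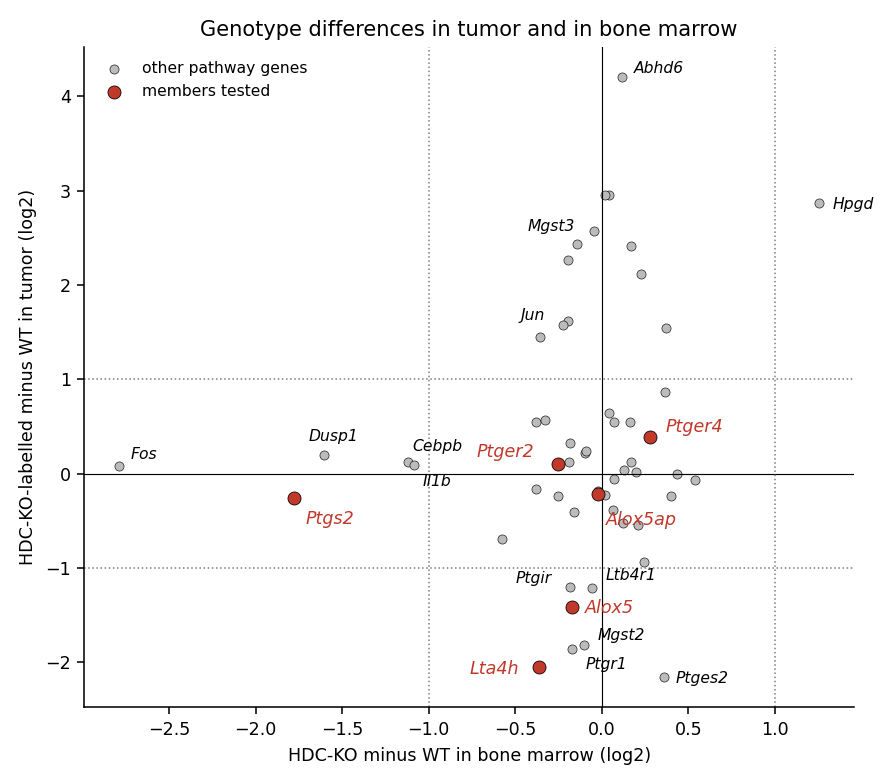
Log2 difference of HDC-KO minus WT in bone marrow (horizontal axis) and of HDC-KO-labelled minus WT in tumor (vertical axis) for the 6 tested members in red and the 50 other tested pathway genes in grey, with dotted lines at 2-fold. Lta4h and Alox5 lie at -2.05 and -1.42 in tumor and within 2-fold in bone marrow. Ptgs2 lies at -1.78 in bone marrow, where its HDC-KO mean is under log2 5 and its other probe set gave 0.01. Fos and Dusp1 lie at -2.79 and -1.61 in bone marrow.

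For members whose pool means spanned at least 1 on the log2 scale, the closest patterns among all tested genes were sought by the Euclidean distance between 4 centred pool means raised to log2 5. The nearest to Ptgs2 were Cxcl3, a neutrophil chemokine, at a distance of 0.22, and Ccrl2, a chemerin-binding receptor, at 0.42. Cxcl3 averaged 13.15 in the HDC-KO-labelled tumor pool, 13.31 in WT tumor, 2.56 in HDC-KO bone marrow and 4.87 in WT bone marrow. Nearest to Lta4h were Lnpk, at a distance of 0.06, which shapes the endoplasmic reticulum, and Parvg, at 0.13, an integrin-linked adaptor of blood cells. Those nearest to Alox5 were Rnf26, at 0.04, and the centromere gene Cenpc1, at 0.05. With only 4 pools many genes share such a pattern, so the distances are descriptions.

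The pathway around the members was read from 83 further genes in 8 lists, of which 74 had a probe set of their own and 50 were tested. Of these 50, 13 reached the tested level through tumor arrays alone, 8 of them through the HDC-KO-labelled tumor pool alone, so their rises in tumor follow from passing. Over all genes 1003 of 8174 passed through tumor arrays alone. The counts were 5 of 50 called between the bone marrow pools, 18 between the tumor pools, 17 for tumor over bone marrow in WT and 28 in HDC-KO, and 23 for the difference of genotype effects. The corresponding shares of all genes are those given above.

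Arachidonic acid release showed calls in both directions between tissues. Of 12 tested genes of this list 4 rose and 1 fell in WT tumor against WT bone marrow, where 16.4% of all genes were called. In HDC-KO 5 rose and 1 fell, where 36.5% were called. Among the 4 rises in WT, Abhd6 (1.12) and Pla2g10 (1.01) had both pools under log2 5. Among the 5 in HDC-KO, Abhd6, Pla2g10 and Pla2g15 reached the tested level through that tumor pool alone, which set their direction. Pla2g4a, the cytosolic phospholipase that supplies both routes, was not called in any comparison, at 9.29 and 9.46 in the HDC-KO-labelled tumor pool, 9.52 and 9.57 in WT tumor, 9.48 and 9.39 in HDC-KO bone marrow and 9.83 and 9.8 in WT bone marrow. It is named for its role, outside the rule for named genes. Pla2g2a, a secreted phospholipase, was at least 20-fold higher in WT tumor (limma, adjusted p = 1.2e-07) and at least 12.4-fold higher in HDC-KO tumor than in bone marrow (limma, adjusted p = 5.1e-08). It reached the tested level through tumor arrays alone, which set that direction. Epithelial markers also moved with tissue, as given above, and their part in this rise was not tested. Pla2g7, which breaks down platelet-activating factor, was 2.62-fold higher in WT tumor than in WT bone marrow. Mgll, a lipase that frees arachidonic acid from a monoglyceride, was 5.02-fold lower in HDC-KO tumor and 2.21-fold lower in WT tumor than in bone marrow.

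Between the tumor pools 3 of these 12 were called, where 26.0% of all genes were. All 3 had reached the tested level through the HDC-KO-labelled tumor pool alone, so their direction was set by that choice. Abhd6, another monoglyceride lipase, was at least 4.97-fold higher, at 7.43 and 7.2 against 3.05 and 3.17. Pla2g15, a lysosomal phospholipase, was at least 1.91-fold higher and Pla2g10, a secreted phospholipase, at least 1.68-fold. Epithelial markers rose in the same pool, as given above, and their part in these rises was not tested. By limma, HDC-KO and WT bone marrow gave no call among the 12.

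Of 9 other prostanoid synthases 4 were tested, and between the tumor pools 3 were called higher and 1 lower, where 26.0% of all genes were called. Of the 3, Prxl2b and Cbr1 reached the tested level through the HDC-KO-labelled tumor pool alone, which set their direction. Epithelial markers rose in the same pool, and their part in these rises was not tested. Ptges2, another prostaglandin E synthase, fell 4.47-fold, at 5.52 and 5.63 in the HDC-KO-labelled tumor pool against 7.72 and 7.75 in WT tumor (-2.16 ± 0.08; limma, adjusted p = 2.7e-06). Prxl2b, a prostaglandin F synthase, was at least 4.17-fold higher, and Cbr1, a carbonyl reductase that acts on prostaglandin E2, at least 3.05-fold. Tbxas1, the thromboxane synthase, stood at 7.34 and 7.45 in the HDC-KO-labelled tumor pool against 6.11 and 5.78 in WT tumor, and its difference of genotype effects was 1.81 ± 0.17 (limma, adjusted p = 2e-04).

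Of 5 tested genes of prostaglandin transport and breakdown, Hpgd was the 1 called between tissues in WT, where 16.4% of all genes were, and it reached the tested level through tumor arrays alone. Hpgd, the dehydrogenase that inactivates prostaglandin E2, stood at 10.62 and 10.65 in the HDC-KO-labelled tumor pool against 4.75 and 4.51 in HDC-KO bone marrow. It stood at 7.78 and 7.76 in WT tumor against 3.46 and 3.29 in WT bone marrow. Hpgd was thus at least 49.6-fold higher in HDC-KO tumor and at least 6.8-fold higher in WT tumor than in bone marrow, and 7.3-fold higher in the HDC-KO-labelled than in the WT tumor pool (limma, adjusted p = 2.3e-06). Between the bone marrow pools it was called higher at 1.25 with both pools under log2 5. Epithelial markers moved with tissue and were higher in the HDC-KO-labelled than in the WT tumor pool, as given above. Their part in the Hpgd rises in tumor was not tested. Between the tumor pools 3 of the 5 were called, where 26.0% of all genes were. Slco2a1, a prostaglandin transporter that reached the tested level through the HDC-KO-labelled tumor pool alone, was at least 1.37-fold higher in the HDC-KO-labelled tumor pool than in WT tumor. Ptgr1, which reduces prostaglandin metabolites and oxidises leukotriene B4, fell 3.64-fold there, at 8.69 and 8.62 against 10.5 and 10.55 (limma, adjusted p = 1.3e-06).

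Of 7 other prostanoid receptors only Ptgir, the prostacyclin receptor, reached the tested level. Ptgir stood at 8.81 and 8.86 in the HDC-KO-labelled tumor pool against 10.06 and 10.02 in WT tumor, a fall of 2.3-fold (-1.2 ± 0.05; limma, adjusted p = 4.3e-06). In bone marrow it stood at 10.3 and 10.31 in HDC-KO and 10.48 and 10.49 in WT, a difference that was not called. The difference of genotype effects was -1.02, which fell just short of 2-fold when HDC-KO tumor array 1 was left out, and lay at -0.98 after quantile normalization.

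Of 7 tested genes of leukotriene transport, conversion and breakdown 3 were called between the tumor pools, and of 3 tested receptors 2 were, where 26.0% of all genes were called. Mgst2, which can join glutathione to leukotriene A4, lay at 10.73 and 10.68 in the HDC-KO-labelled tumor pool against 12.52 and 12.54 in WT tumor, and fell 3.54-fold (-1.82 ± 0.05; limma, adjusted p = 1.2e-06). Ltb4r1, the high-affinity leukotriene B4 receptor, lay at 8.8 and 8.86 against 9.98 and 10.11 and fell 2.32-fold (limma, adjusted p = 1.2e-05). Both were also lower in HDC-KO tumor than in HDC-KO bone marrow, Mgst2 4.35-fold and Ltb4r1 3.85-fold. Cysltr1, a receptor of the cysteinyl leukotrienes, rose 3.07-fold in the HDC-KO-labelled tumor pool against WT tumor (limma, adjusted p = 0.0011), at 6.89 and 7 against 5.47 and 5.17, and its other detected probe set was not called at 1.00. Mgst3, a related transferase, rose 5.93-fold. Epithelial markers rose in the same comparison, as given above, and their part in these rises was not tested. Dpep1, a peptidase that trims leukotriene D4, was at least 1.25-fold higher, and like Ephx1 it reached the tested level through the HDC-KO-labelled tumor pool alone. Ggt5, a transpeptidase that acts on leukotriene C4, was 2.47-fold lower in WT tumor than in WT bone marrow. Of 3 tested genes among other lipoxygenases and epoxide enzymes, Ephx1 was called higher in the HDC-KO-labelled tumor pool, at least 2.02-fold, while Alox12, Alox15, Alox8, Alox12b and Aloxe3 did not reach the tested level.

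**Figure D4:**
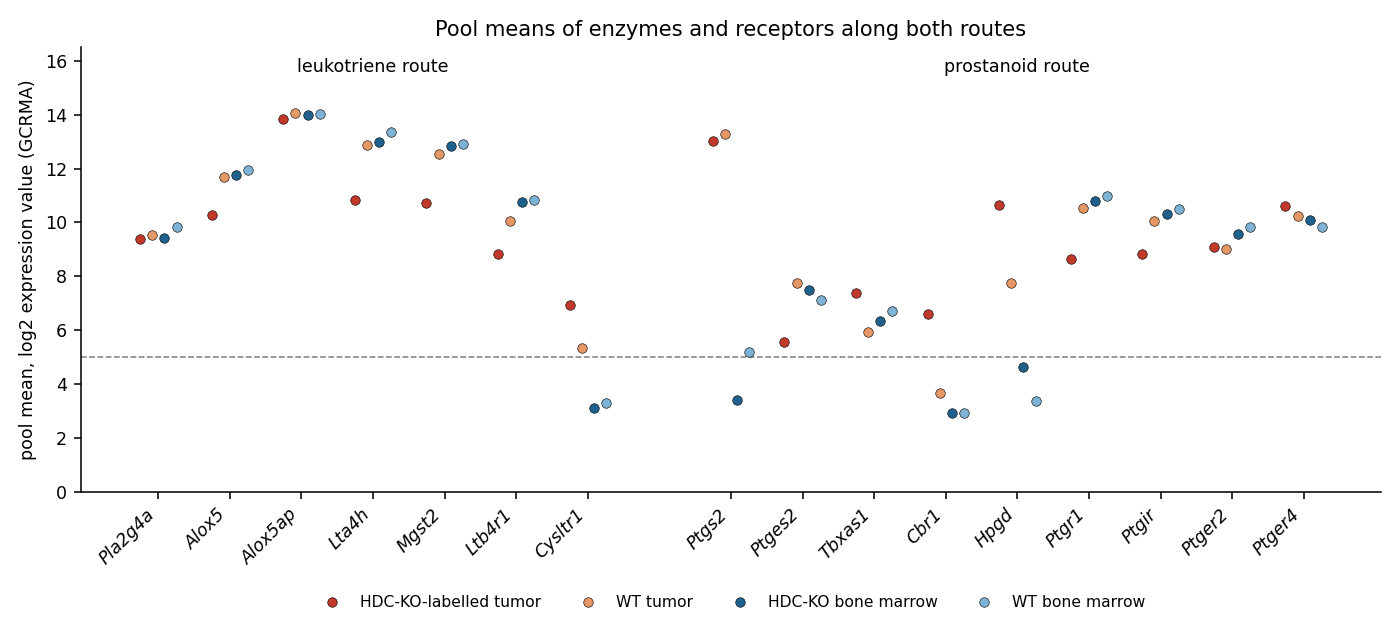
Pool means of log2 expression values (vertical axis) for 16 enzymes and receptors chosen after their values were seen, along the leukotriene and prostanoid routes, with 4 points per gene for the pools and a dashed line at log2 5. Heights are comparable between pools of a gene and not between genes. In the HDC-KO-labelled tumor pool Alox5, Lta4h, Mgst2, Ltb4r1, Ptges2, Ptgr1 and Ptgir lie more than 1 below WT tumor, and Cysltr1, Tbxas1, Cbr1 and Hpgd more than 1 above it.

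Of 15 tested regulators linked to Ptgs2, 8 rose in HDC-KO tumor against HDC-KO bone marrow, where 36.5% of all genes were called, and 7 rose in WT tumor against WT bone marrow, where 16.4% were. Limma called none of them lower. Jun and Egr1 reached the tested level through tumor arrays alone. Monocyte and macrophage markers rose with tissue as well, 8 of 8 in each genotype, with summed levels of 14.95 to 15.01 in HDC-KO tumor against 11.76 to 11.77 in HDC-KO bone marrow, and of 13.89 to 13.93 in WT tumor against 11.4 to 11.45 in WT bone marrow. Neutrophil precursor markers fell, 7 of 7 in HDC-KO and 5 of 7 in WT. Epithelial markers rose, 10 of 10 in each genotype. Their summed level was 14.56 to 14.66 in HDC-KO tumor against 7.72 to 7.88 in HDC-KO bone marrow. In WT it was 12.2 to 12.24 in tumor against 7.62 to 7.92 in bone marrow. The part of all these cells in the rises, that of Ptgs2 included, was not tested. Egr1, an immediate early factor, was at least 274-fold higher in HDC-KO tumor and at least 185-fold higher in WT tumor than in bone marrow. Jun, a part of AP-1, was at least 65.3-fold and at least 22-fold higher, although its other probe set gave log2 differences of 4.09 and 3.14. Tnfaip3, a brake on NF-kB, stood at 12.33 and 12.29 in WT tumor against 7.51 and 7.63 in WT bone marrow, a rise of 26.8-fold (limma, adjusted p = 9.3e-08). Fos stood at 13.98 and 13.98 in HDC-KO tumor against 9.23 and 9.07 in HDC-KO bone marrow, a rise of 28.5-fold. In WT it rose 3.91-fold, at 13.86 and 13.95 in tumor against 11.9 and 11.97 in bone marrow.

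Between the bone marrow pools 4 of these 15 were called lower in HDC-KO, where 3.82% of all genes were called. The brighter Ptgs2 probe set was also called lower, but its HDC-KO mean lay under log2 5. That call was lost with values raised to log2 5, and the other Ptgs2 probe set gave 0.01. Markers of other cells moved in the same comparison, and their part in it was not tested. Of 5 tested mast cell and basophil markers 4 fell, with the summed levels given above. Cd3d, a T cell marker, averaged 12.48 in HDC-KO against 7.63 in WT bone marrow. The plasma cell marker Jchain averaged 5.09 against 8.9, and the macrophage marker Adgre1 6.77 against 8.49. Other genes of their lists differed from them, so no gain or loss of these cells is read. Cd3e, Cd3g and Cd2 averaged under log2 5 in both pools, and Nkg7 averaged 8.31 against 9.37. Limma called 2 genes higher and 1 lower among 5 tested in the T cell list. It called 1 higher and 2 lower among 4 in the B cell list, and 2 higher and 1 lower among 8 in the macrophage list. Fos stood at 9.23 and 9.07 in HDC-KO against 11.9 and 11.97 in WT bone marrow, a fall of 6.9-fold (limma, adjusted p = 6.2e-06). Dusp1, a phosphatase that restrains p38, fell 3.05-fold, at 11.57 and 11.5 against 13.14 and 13.14. Cebpb, which encodes a C/EBP factor, fell 2.17-fold, at 12.48 and 12.56 against 13.66 and 13.62. Il1b, named after its values were seen, stood at 10.69 and 10.88 in HDC-KO against 11.92 and 11.82 in WT bone marrow. In tumor Jun was the 1 called regulator, 2.97-fold higher in the HDC-KO-labelled pool, and its other probe set was not called at 0.6.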

How the data were processed

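The authors deposited 1 table of log2 values for 45101 probe sets, normalized with GCRMA per the submitters' processing notes, and the log2 scale follows from its range. The version of GCRMA is not given in the sources used. Arrays were grouped by title into 4 groups of 2 technical arrays. Names of probe sets came from the annotation of the platform (34958 with 1 gene, 932 with several, 9211 with none), and 204 of those with 1 gene had an Entrez identifier without a match in RefSeq (GRCm38.p6). The probe set with the highest mean stood for its gene, and a gene entered the test if 2 or more arrays reached log2 5. The fit used limma 3.58.1 (R 4.3.3) over all 8 arrays (4 residual, 2.14 prior degrees of freedom), for the 4 comparisons of the design and their difference. The number of arrays limits the precision. A group mean under log2 5 was raised to 5 for a fold, given as a bound. Other filters, normalizations, probe set rules and left-out arrays were tried.

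The members, gene lists and tests were chosen with earlier results of these data known. Named from each list were, per comparison, up to 3 called genes with the largest difference after raising means, and a gene taken by this rule is described where its value adds most. The markers were lists of neutrophil, neutrophil precursor, monocyte and macrophage, mast cell and basophil, eosinophil, epithelial, stromal, platelet, T and B cell genes. Of the last 3 lists 1, 3 and 2 genes rose in the HDC-KO-labelled tumor pool against WT tumor, and 0, 1 and 0 fell. The fit was tested on simulated data. Promoters were searched with Python 3.11.15 and pandas 2.3.3.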

Additional observations from a re-analysis of the deposited data

Results flagged for a closer look

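The genotype difference in tumor departed from that in bone marrow, in limma's test of the difference itself (adjusted p under 0.05 and at least 1 on the log2 scale), for 3 members and 19 named pathway genes. Of all tested genes 28.5% were called in that test. The 19 were taken from genes called in it, so their number is not a result. The values are differences of effects on the log2 scale, tumor minus bone marrow, and each tumor effect rests on a tumor pool whose HDC-KO label Hdc did not bear out. Among the members they were -1.68 for Lta4h, -1.24 for Alox5 and 1.52 for Ptgs2. The effects behind them were -2.05 in tumor and -0.36 in bone marrow for Lta4h, -1.42 and -0.18 for Alox5, and -0.26 and -1.78 for Ptgs2.

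Among genes of arachidonic acid release the difference was 4.09 for Abhd6, 1.17 for Pla2g15 and -1.18 for Mgll. With values raised to log2 5 Abhd6 gave 2.31 and Pla2g15 lost its call at 0.93, and the other Mgll probe sets gave -0.63 and -0.76, neither called. The prostanoid synthases gave -2.52 for Ptges2, 2.91 for Prxl2b and 1.81 for Tbxas1. Prostaglandin transport and breakdown gave 1.61 for Hpgd, 2.24 for Slco2a1 and -1.69 for Ptgr1, and the receptor Ptgir gave -1.02. With values raised to log2 5 Hpgd gave 2.87 and Slco2a1 lost its call at 0.46. Leukotriene handling gave 2.61 for Mgst3, -1.72 for Mgst2 and 2.46 for Dpep1, and its receptors gave 1.81 for Cysltr1 and -1.16 for Ltb4r1. Ephx1 gave 2.57. With values raised to log2 5 Dpep1 lost its call at 0.32, Prxl2b gave 2.06, Cysltr1 1.62 and Ephx1 1.01. Abhd6, Pla2g15, Prxl2b, Slco2a1, Dpep1 and Ephx1 reached the tested level through the HDC-KO-labelled tumor pool alone. That choice set the direction of their differences of effects. The regulators gave 2.86 for Fos, 1.81 for Dusp1 and 1.79 for Jun, whose other probe set gave 0.96 and was not called. No single array could be tested for standing apart within its group of 2.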

How the results depend on the processing

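Counts of called genes stayed within 1.5 times under each alternative but the fit of every probe set, which tests more features. That fit called 502, 3300, 2147, 4898 and 3728 probe sets, in the order genotype in bone marrow, genotype in tumor, tissue in WT, tissue in HDC-KO and the difference of effects, against 312, 2122, 1338, 2986 and 2330 genes. Leaving out an array gave 286 to 311, 2122 to 2140, 1333 to 1344, 2986 to 3011 and 2306 to 2348. Falls of Lta4h and Alox5 in the HDC-KO-labelled tumor pool lay at -2.11 to -1.59 and -1.48 to -1.36 over 19 alternatives and were called in each that has a test (averaging the technical arrays leaves none). Ptgs2 between bone marrow pools lost its call at -0.19 with values raised to log2 5 and -0.88 when its probe sets were averaged. Its difference of effects was -0.07 and 0.48 in those settings. Raising values to log2 5 also ended the calls between the tumor pools of Pla2g15 (0.93), Pla2g10 (0.75), Slco2a1 (0.46) and Dpep1 (0.32), and, at the same values, those of Pla2g15, Slco2a1 and Dpep1 for the difference of effects. Changes of sign also met Alox5ap between bone marrow pools (0.03 after median centring) and the difference of effects of Ptger4 (-0.01 after median centring, -0.24 with probe sets averaged), none of them called. Same-numbered arrays did not deviate together (r from -0.01 to 0.06 over tested genes), and the replicate block called 312, 2122, 1339, 2986 and 2327 genes. It changed no call of a member or named gene.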
